A study of Mus musculus with 12 samples.

Results

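Neurons without a microexon of Daam1 were compared with wild-type neurons under vehicle, using 6 of the 12 libraries of the series: 3 knockout (KO) and 3 wild-type (WT) libraries, taken by their labels. The cells were glutamatergic neurons differentiated in vitro from mouse embryonic stem cells and harvested at culture day 21. Each WT library came from one of 3 lines labelled Daam1-MIC_WT and each KO library from one of 3 lines labelled Daam1-MIC_KO, all exposed to water for 2 h. The labels do not say how the lines were derived, or whether a line is 1 clone. The other 6 libraries are the same 6 lines given 10 µM Y-27632, an inhibitor of the kinase ROCK. The series' own design text names dissected hippocampus of adult mice; the samples are described here by their labels, all of which give cultured neurons. The comparison asks how the transcriptome of neurons without the microexon differs from that of WT neurons when no drug is present, and p-values measure only the spread between these lines.

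Daam1 is a formin, a protein that nucleates and elongates unbranched actin filaments. It is known as a link between Dishevelled and the GTPase RhoA in noncanonical Wnt signalling and planar cell polarity, and RhoA in turn activates ROCK, myosin II and the LIM kinases that act on cofilin. Microexons are very short exons that are included mostly in neurons under the control of splicing factors such as Srrm4, and they change a protein by a few residues.

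Which exon was removed is not stated in the labels. The annotation of Daam1 (GENCODE M21, GRCm38) holds 1 coding exon of 30 nt or less, and the lines below show how it changes the transcript. It is exon 16 of 26, 27 nt long, at chr12:71958747-71958773 on the plus strand, and it is present in 2 of the 3 annotated coding transcripts. Capitals mark the microexon, and lower case marks 15 nt of exon on each side.
Daam1 with the microexon: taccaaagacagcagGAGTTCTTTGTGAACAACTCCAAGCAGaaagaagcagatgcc
Daam1 without the microexon: taccaaagacagcagaaagaagcagatgcc
Its length is a multiple of 3, so that the transcript without it keeps the reading frame and lacks 9 codons.

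Daam1 itself (chr12:71831078-71992333) did not differ between the groups beyond the spread between lines. Levels are given as CPM, counts per 1000000 after TMM scaling of the library totals, for lines 1, 2 and 3 in that order. Daam1 was at 162, 155 and 184 CPM in WT and at 150, 163 and 182 CPM in KO. The log2 difference was -0.01 ± 0.11 (SE; adjusted p = 0.969, edgeR), and its sign changed when single libraries were left out. A count per gene does not resolve a 27 nt exon, so that these values do not check the genotype.

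The 6 vehicle libraries held from 23253566 to 30080749 counts, of which mitochondrially encoded genes took 13.8% to 18.5%. WT line 2 stood apart. On the first principal component, which held 75.3% of the variance, it lay at -95.6 and the other 5 libraries between -6.46 and 51.1. Its median correlation with the others was 0.930, against 0.980 to 0.988 for the rest. Summed over lists of marker genes, WT line 2 held 1457 CPM of fibroblast and mesenchymal markers other than Thy1, which neurons also express, against 53.4 to 442 CPM in the others. For laminins and other basement membrane genes it held 16287 CPM against 584 to 2524 CPM. Epithelial markers were at 625 CPM against 15.6 to 94.9 CPM, and cell cycle genes at 947 CPM against 113 to 268 CPM. Results that this library carries are therefore given with and without it.

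**Figure D1:**
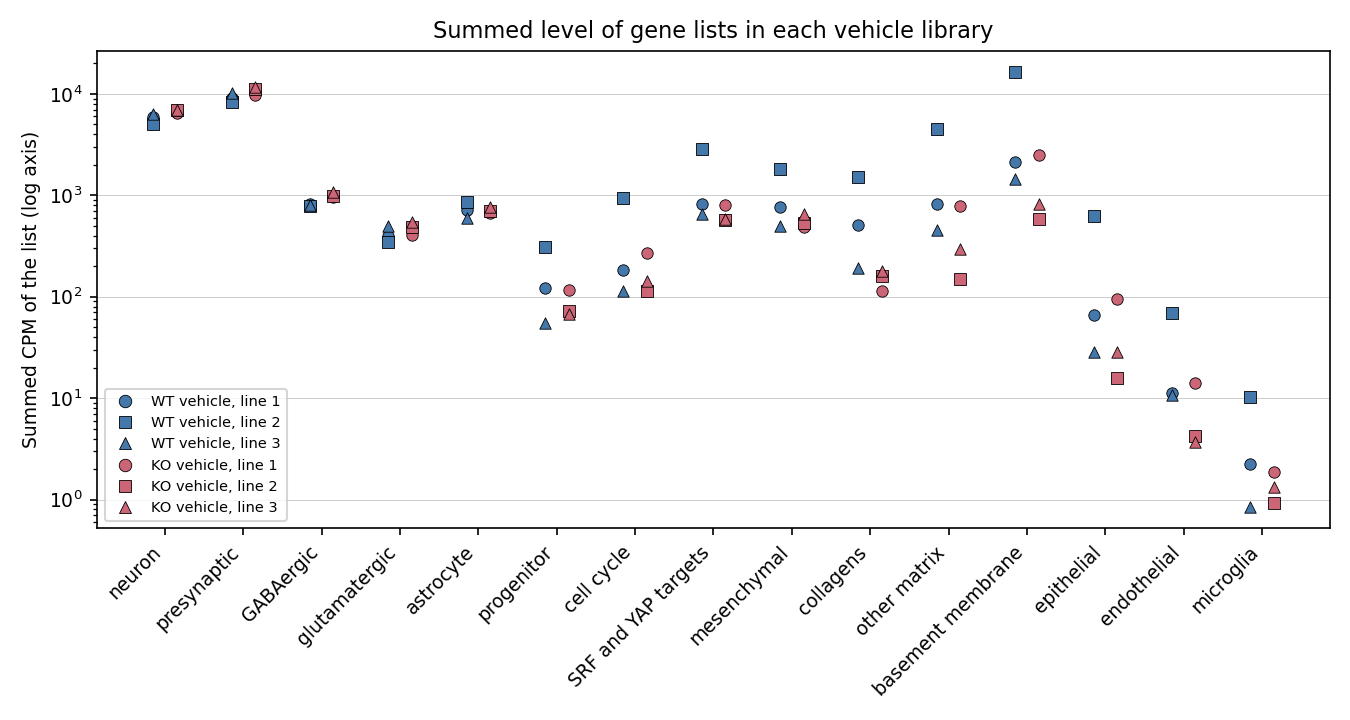
Summed CPM (log axis) of 15 gene lists in the 6 vehicle libraries; blue marks are WT and red marks KO, and the shape gives the line. WT line 2 (blue squares) lies above the other libraries for basement membrane genes (16287 CPM), epithelial markers (625 CPM) and cell cycle genes (947 CPM), and the mesenchymal sum includes Thy1, whose level is highest in KO; the general neuron and GABAergic lists are higher in every KO library than in every WT library.

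No gene passed the test. Of 14668 genes tested with edgeR, 0 (0%) had an adjusted p below 0.05, and the smallest adjusted p, 0.533, was shared by Scn4b, Lrmp and Col25a1. An unadjusted p below 0.05 was reached by 754 genes (5.14%), 385 of them higher in KO (2.62%) and 369 lower (2.52%). Scaling by library totals instead of TMM changed these to 218 higher and 505 lower. The fitted difference was above 0 in 48.1% of genes and below 0 in 51.9%, and scaled by library totals it was above 0 in 42.7%. In 1747 genes (11.9%) the WT and KO libraries did not overlap, 981 with KO higher (6.69%) and 766 with KO lower (5.22%). DESeq2 on the same counts called 59 genes (0.402%), 28 higher (0.191%) and 31 lower (0.211%), and limma voom with library weights called 0, with 1716 genes at an unadjusted p below 0.05. Without WT line 2, edgeR called 2 of 14949 genes (0.0134%), Lrmp and Meg3, both lower in KO, while 336 genes on the higher side (2.25%) and 286 on the lower side (1.91%), 622 in all (4.16%), reached an unadjusted p below 0.05. In that fit 52.3% of genes were above 0 and 47.7% below. All differences below are therefore described as measured values of genes that did not pass the edgeR test over the 6 libraries.

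The 10 genes with the smallest p among those higher in KO included genes of sodium channels, neurofilaments and glycine transport. The choice of these 10, and of the 9 lower genes below, took only genes whose groups did not overlap, so that the gap between groups in them is no finding. Scn4b encodes a beta subunit of voltage-gated sodium channels. It was at 11.6, 11.4 and 11.4 CPM in WT and 20.9, 23.8 and 21.9 CPM in KO, a log2 difference of 0.95 ± 0.10. DESeq2 gave it an adjusted p of 1.52e-10. Nefh and Nefm encode the heavy and medium neurofilament subunits of large axons. Nefh was at 126, 127 and 131 CPM in WT and 168, 179 and 170 CPM in KO, and Nefm at 441, 424 and 455 against 568, 643 and 616 CPM. Their log2 differences were 0.43 ± 0.07 and 0.47 ± 0.09. The annotated span of Nefm overlaps Nefl on the opposite strand.

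Slc6a5, the glycine transporter GlyT2 of glycinergic nerve endings, was at 143, 132 and 134 CPM in WT and at 201, 194 and 236 CPM in KO (log2 difference 0.63 ± 0.10). Col25a1, a membrane-bound collagen of neurons, was at 53.6, 49.6 and 50.8 CPM against 87.2, 86.3 and 106 CPM. Chodl, a membrane protein known as a marker of fast motor neurons, was at 10.8, 8.03 and 9.99 CPM against 21.2, 29.2 and 24.2 CPM, the largest difference of the 10 (log2 1.37 ± 0.17). The other 4 were Tmem59l, Stum, Strip2 and Rassf4, with log2 differences of 0.67, 0.51, 0.65 and 0.52. All 10 were among the genes DESeq2 called. Without WT line 2 their log2 differences ran from 0.42 to 1.26, against 0.43 to 1.37 with it.

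**Figure D2:**
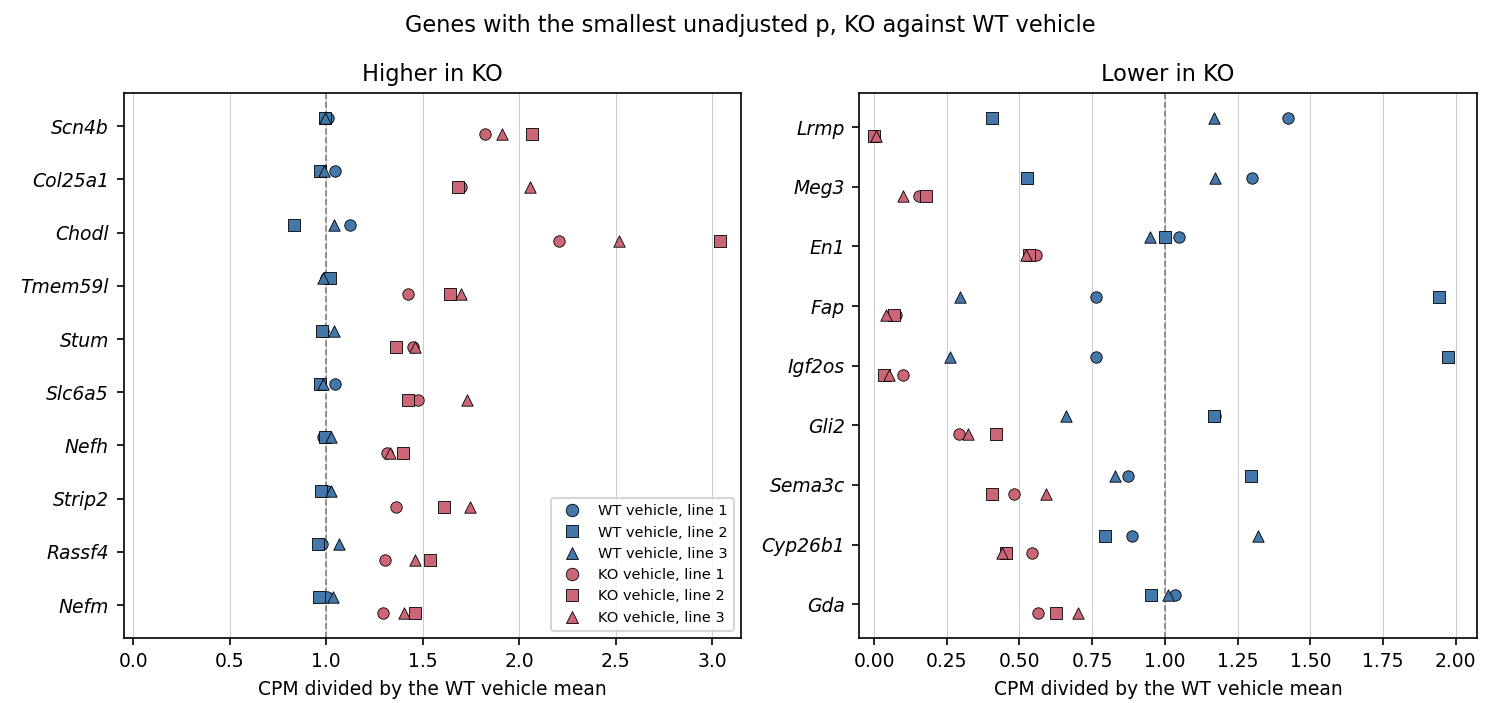
CPM of each vehicle library divided by the WT mean (linear axis) for 10 higher and 9 lower genes among those with the smallest unadjusted p in each direction; blue marks are WT, red marks KO, shapes are lines, and the dashed line is the WT mean. The WT marks of the higher genes lie close to 1 with all KO marks to their right, a gap that the choice of genes required, whereas WT line 2 is the lowest WT library in Lrmp and Meg3 and the highest in Fap and Igf2os; no gene passed the adjusted edgeR test.

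Markers of inhibitory neurons had the highest median of the 32 lists over the 6 libraries, though not without WT line 2, where cell cycle genes had a higher one. Of 9 tested GABAergic markers, 6 were higher and 3 lower in KO, 5 of them at an unadjusted p below 0.05, and the list median was 0.35 on the log2 scale (0.22 without WT line 2; -0.01 over all genes). Gad1 and Gad2 encode the enzymes that make GABA. Gad1 was at 178, 160 and 176 CPM in WT and 251, 194 and 216 CPM in KO, and Gad2 at 163, 146 and 166 against 179, 201 and 224 CPM. The vesicular transporter Slc32a1 was at 135, 149 and 123 CPM in WT and 158, 179 and 206 CPM in KO. In these 3 genes the groups did not overlap, with log2 differences of 0.36 ± 0.11, 0.35 ± 0.11 and 0.42 ± 0.13. Over the list, 5 of the 9 genes did not overlap, all with KO higher, against 6.69% of all genes. The 3 members that were lower in KO all overlapped. In bulk RNA, more cells of a type and more RNA per cell cannot be told apart.

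Calretinin (Calb2), a calcium-binding protein of some interneurons, was at 46.1, 38.4 and 54.5 CPM in WT and at 55.6, 98.1 and 107 CPM in KO. KO line 1 was just above the highest WT line, and KO lines 2 and 3 were clearly apart from it. Parvalbumin (Pvalb), a calcium buffer of fast-spiking neurons, was at 3.56, 3.96 and 4.39 CPM in WT and 6.90, 7.86 and 7.86 CPM in KO (log2 difference 0.92 ± 0.17; DESeq2 adjusted p = 0.00687). Pvalb is not in the GABAergic list and is given because DESeq2 called it.

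Of the vesicular glutamate transporters in the marker list, Slc17a6 was far more abundant than Slc17a7. The list holds mostly forebrain markers, so it cannot judge the labelled glutamatergic identity of the cells. Slc17a6, the vesicular glutamate transporter VGLUT2, was at 273, 251 and 377 CPM in WT and 295, 359 and 421 CPM in KO, with overlapping groups. Slc17a7, or VGLUT1, the transporter typical of cortex and hippocampus, was near 1 CPM: 1.01, 0.901 and 1.05 CPM in WT and 1.45, 1.44 and 2.03 CPM in KO. The Slc17a7 groups did not overlap, with a log2 difference of 0.73 ± 0.27 (edgeR unadjusted p = 0.0314). Over the list, 1 gene did not overlap with KO higher and 1 with KO lower, against 6.69% and 5.22% of all genes. Per transcript length, Slc17a6 stood at a mean of 74.3 cRPKM in WT and Slc17a7 at 0.347 cRPKM. The deep-layer cortical gene Bcl11b was at 37.0, 29.1 and 32.1 CPM against 31.2, 22.1 and 26.4 CPM. Of the 9 glutamatergic and forebrain projection neuron markers tested, 4 were higher and 5 lower, with a median of -0.07 whose sign changed when single libraries were left out.

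**Figure D3:**
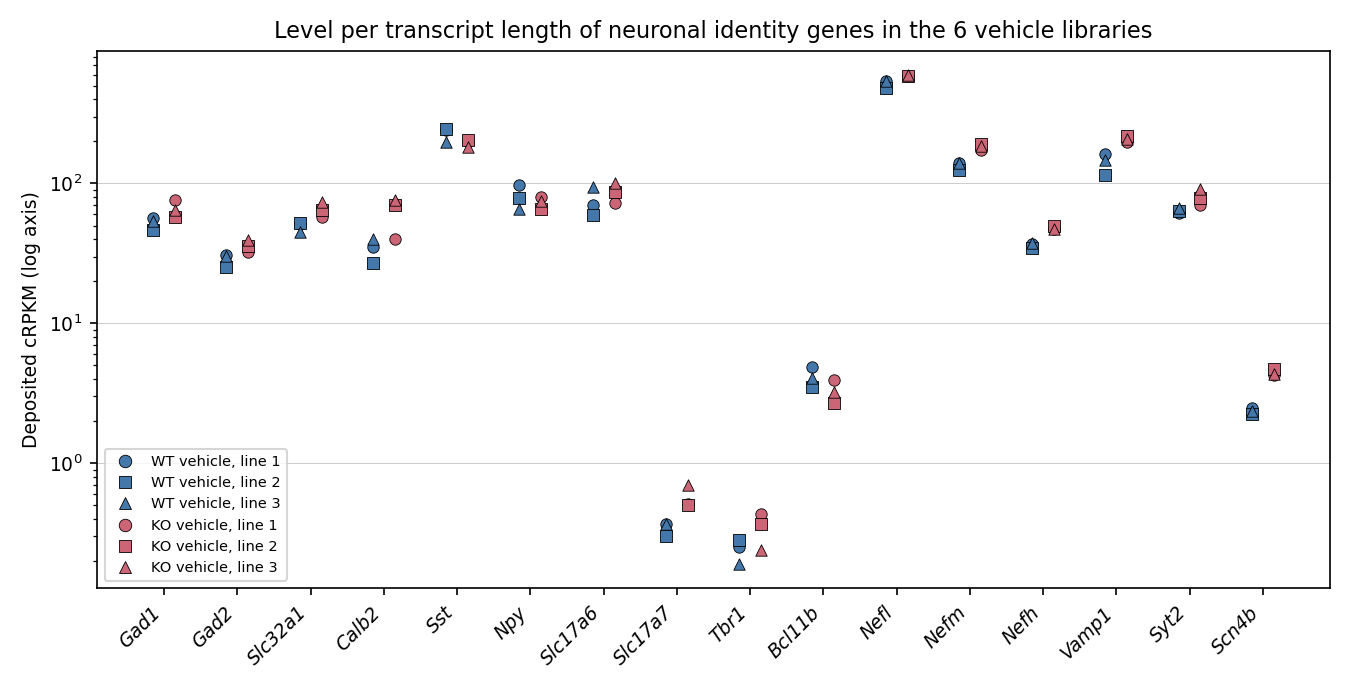
Deposited cRPKM (log axis), a level per transcript length, of 16 neuronal identity genes in the 6 vehicle libraries; blue marks are WT, red marks KO, and shapes are lines. Slc17a6 lies near Gad1 and far above Slc17a7 in both genotypes. The KO marks lie above all WT marks in genes that include Gad1, Gad2, Slc32a1, Calb2, Slc17a7, Vamp1, Scn4b, Nefh and Nefm. For Scn4b, Nefh and Nefm the choice of genes required that gap.

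General neuron markers and genes of vesicle release were also mostly higher in KO. Of 10 general neuron markers, 8 were higher in KO, or 7 of 10 without WT line 2, and 3 had an unadjusted p below 0.05. Their summed level was 5880, 5056 and 6390 CPM in WT and 6551, 6986 and 6987 CPM in KO. Of 19 presynaptic genes, 17 were higher and 2 lower, 3 at an unadjusted p below 0.05, with a median of 0.23 (0.14 without WT line 2, with 14 higher and 5 lower); scaled by library totals, 15 were higher and 4 lower. Vamp1, a vesicle SNARE, was at 422, 324 and 392 CPM in WT and 538, 604 and 572 CPM in KO (log2 difference 0.59 ± 0.12; DESeq2 adjusted p = 0.00361). Rph3a, a Rab3 effector on vesicles, was at 156, 137 and 147 against 190, 235 and 243 CPM. Rph3a is not in the presynaptic list and is given because DESeq2 called it. Cplx1, which clamps and promotes fusion, was at 657, 640 and 725 against 744, 899 and 890 CPM. The calcium sensor Syt2 was at 401, 450 and 449 against 475, 545 and 638 CPM. The annotated span of Vamp1 overlaps Tapbpl and Cd27 on the opposite strand.

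Postsynaptic genes had a median near that of all genes. Of 20 postsynaptic density and glutamate receptor genes, 14 were higher and 6 lower, 0 had an unadjusted p below 0.05, and the median was 0.05 (-0.02 without WT line 2). The scaffold gene Dlg4 (PSD-95) was at 471, 447 and 431 CPM in WT and 436, 446 and 440 CPM in KO. Grin1, the obligatory NMDA receptor subunit, was at 413, 474 and 447 against 469, 472 and 592 CPM. All 24 voltage-gated sodium, calcium and potassium channel genes tested had a fitted value above 0, with a median of 0.14, although 1 fell below 0 when libraries were scaled by their totals. Scn4b was the 1 gene with an unadjusted p below 0.05. Without WT line 2, 18 of the 24 were higher and 6 lower, and the median was 0.05. Without KO line 3, 16 were higher and 8 lower. Kcna2, a potassium channel of axons, was at 129, 114 and 153 CPM in WT and 135, 157 and 192 CPM in KO.

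Hox genes, the transcription factors that mark position along the head-to-tail axis of hindbrain and spinal cord, differed by their place in the clusters. Low paralogue numbers are expressed further towards the head and high numbers further towards the tail. Of 39 Hox genes, 26 were expressed enough to be tested. Among the 17 of paralogues 1 to 6, 16 were higher in KO and 1 lower, with a median log2 difference of 0.52. All 9 tested genes of paralogues 7 to 13 were lower, with a median of -0.50. At an unadjusted p below 0.05 there were 6 of the first set, all higher, and 4 of the second, all lower. Without WT line 2 the medians were 0.43 and -0.47, with 15 of 17 higher and all 9 lower. The division at paralogue 6 was chosen after the values were seen, and no Hox gene passed the adjusted edgeR test, while DESeq2 called Hoxa5, Hoxb5 and Hoxc8.

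The 3 KO lines were not alike in these genes. Hoxa5 was at 153, 126 and 168 CPM in WT and at 185, 371 and 372 CPM in KO, and Hoxb5 at 74.6, 63.4 and 83.9 against 91.6, 286 and 272 CPM. Hoxb9 was at 56.6, 50.0 and 64.4 CPM in WT and at 51.2, 16.5 and 16.5 CPM in KO. In these 3 genes KO line 1 lay within or just above the WT range, and KO lines 2 and 3 lay far outside it. Hoxc8 differed in all 3 KO lines, at 1.14, 1.49 and 2.23 CPM in WT and 0.283, 0.131 and 0.156 CPM in KO (log2 difference -3.04 ± 0.44). Its annotated span overlaps Hoxc5 on the same strand. Hoxb8, the most abundant of the second set, was at 287, 220 and 298 CPM against 229, 202 and 199 CPM. Summed over paralogues 1 to 6, the level was 589, 464 and 626 CPM in WT and 636, 1149 and 1111 CPM in KO. Over paralogues 7 to 13 it was 424, 336 and 449 CPM against 353, 275 and 269 CPM.

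**Figure D4:**
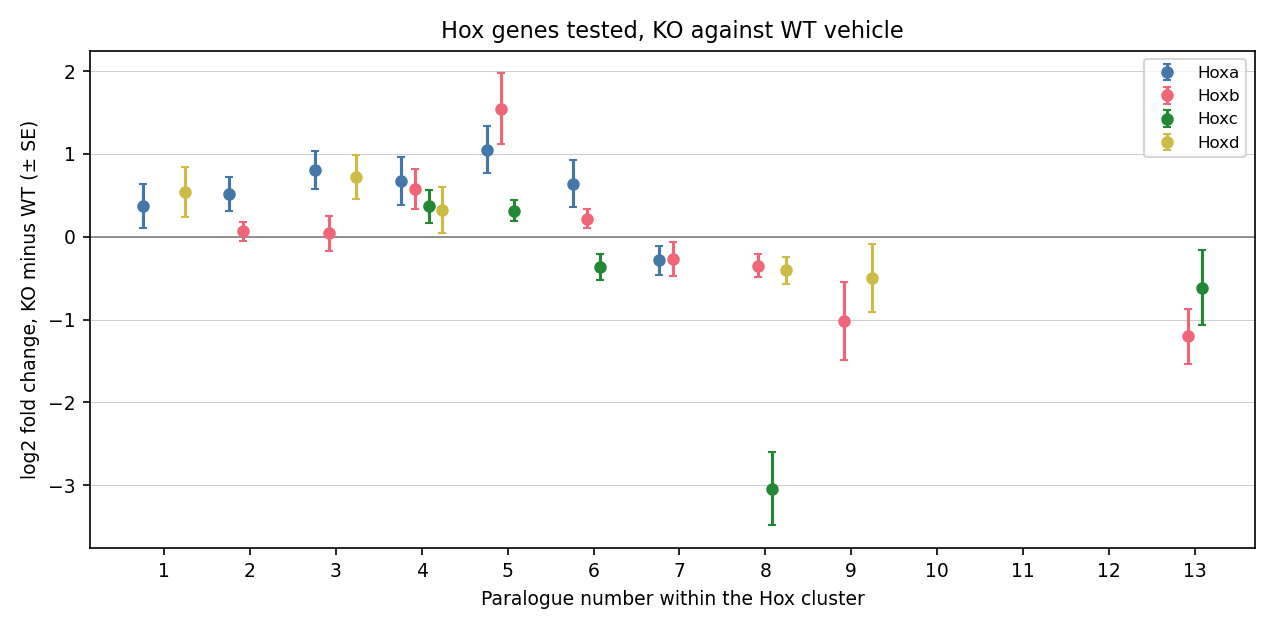
Log2 fold change of KO over WT (± SE, 3 libraries a group) for the 26 Hox genes tested, by paralogue number, with the 4 clusters in different colours. Of paralogues 1 to 6, 16 of 17 points lie above 0, and all 9 points of paralogues 7 to 13 lie below it.

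Among the genes lower in KO with a mean of at least 1 CPM and groups that did not overlap, Lrmp and Meg3 had the smallest p. Lrmp, a membrane protein of the endoplasmic reticulum known from lymphocytes, was at 19.9, 5.68 and 16.3 CPM in WT and at 0, 0 and 0.0782 CPM in KO. All KO libraries held 3 counts or fewer. Set against that floor of 3 counts per library, the KO level was at least 118-fold lower. The edgeR adjusted p was 0.533 over the 6 libraries and 0.00637 without WT line 2, the WT library with the lowest value. Its annotated span overlaps Casc1 on the opposite strand. Meg3, an imprinted long noncoding RNA expressed from the maternal allele, was at 21.2, 8.62 and 19.2 CPM in WT and 2.55, 2.93 and 1.64 CPM in KO. The log2 difference was -2.78 ± 0.41 (adjusted p = 0.678), and -3.09 with an adjusted p of 0.0238 without WT line 2.

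Patterning genes followed. En1, a homeobox gene of the midbrain and of V1 spinal interneurons, was at 8.57, 8.19 and 7.77 CPM in WT and at 4.56, 4.37 and 4.26 CPM in KO (log2 difference -0.89 ± 0.15; DESeq2 adjusted p = 0.00165). Gli2, a transcription factor of the Hedgehog pathway, was at 2.55, 2.55 and 1.44 CPM in WT and 0.637, 0.917 and 0.704 CPM in KO. The retinoic acid-degrading enzyme gene Cyp26b1 was at 8.47, 7.56 and 12.6 against 5.17, 4.32 and 4.19 CPM. Sema3c, a secreted guidance cue, was at 18.4, 27.3 and 17.5 against 10.1, 8.51 and 12.5 CPM. The remaining 3 were Gda, Fap and Igf2os, the last of which overlaps Igf2 on the opposite strand. DESeq2 called 6 of these 9 lower genes, the exceptions being Gli2, Cyp26b1 and Gda.

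The imprinted growth factor gene Igf2 was at 319, 930 and 66.7 CPM in WT and at 35, 13.2 and 22.6 CPM in KO. The WT libraries differed among themselves by far more than the KO libraries, yet the lowest WT library was above the highest KO library. The log2 difference was -4.21 ± 1.00, and -3.03 without WT line 2 (DESeq2 adjusted p = 0.0151). It overlaps Igf2os, so that reads of the pair cannot be told apart unless counting used the strand.

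Extracellular matrix genes were mostly lower in KO, most of all against WT line 2. Of 12 fibrillar and type VI collagens, 9 were lower and 3 higher in KO, 8 of them lower at an unadjusted p below 0.05, and the median was -2.22 (-1.28 without WT line 2). Of 23 proteoglycan, microfibril and matricellular genes, 22 were lower, 14 at an unadjusted p below 0.05, with a median of -2.69 (-1.33 without WT line 2). Without that library, the unadjusted p stayed below 0.05 for 4 collagens and 9 of the other matrix genes. Col3a1, a fibrillar collagen, was at 125, 353 and 37.9 CPM in WT and at 11.5, 7.47 and 23.5 CPM in KO. Col6a2, of the microfibrillar type VI collagen, was at 19.9, 77.7 and 8.19 against 4.10, 2.31 and 4.38 CPM. Fibrillin-2 (Fbn2) was at 19.3, 42.0 and 6.82 CPM against 3.50, 3.45 and 3.48 CPM. The small proteoglycan Ogn was at 5.04, 12.1 and 0.721 against 0.248, 0.0873 and 0.313 CPM, and Dcn, or decorin, at 18.0, 44.5 and 5.28 against 2.87, 1.40 and 4.69 CPM.

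In each of these 5 genes the groups did not overlap, WT line 2 was the highest and WT line 3 the lowest WT library. Over the lists, 4 of the 12 collagens and 7 of the 23 other matrix genes did not overlap, all with KO lower, against 5.22% of all genes. Most members of both lists overlapped. The log2 differences of the 5 genes ran from -4.74 ± 1.12 (Ogn) to -2.70 ± 0.64 (Fbn2), and from -3.69 to -1.91 without WT line 2. Col1a1, the main fibrillar collagen, overlapped, at 141, 469 and 37.5 CPM in WT and 12.4, 10.6 and 43.9 CPM in KO. Of 12 fibroblast and mesenchymal markers, 7 of which belong to those lists, 11 were lower and 1 higher, with a median of -2.39. At an unadjusted p below 0.05 there were 7 lower and 1 higher. Without WT line 2, 10 were lower and 2 higher, 3 and 1 of them at that p, and the median was -1.02. The gene higher over the 6 libraries was Thy1, a surface protein of neurons as well as fibroblasts. It was at 323, 344 and 342 CPM in WT and 403, 480 and 510 CPM in KO. The other 11 summed to 442, 1457 and 153 CPM in WT and to 87.1, 53.4 and 145 CPM in KO, without overlap, though WT line 3 was just above KO line 3. Thy1 was set aside after the values were seen; with it the sums overlapped, at 765, 1801 and 495 CPM against 490, 533 and 656 CPM. The share of such cells in the matrix difference was not tested.

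Basement membrane genes depended on WT line 2. Of 12 laminin and basement membrane genes, 11 were lower, but 1 had an unadjusted p below 0.05, and the median went from -2.41 to -0.47 without that library. Col4a1, the type IV collagen of basement membranes, was at 589, 4880 and 375 CPM in WT and 660, 112 and 167 CPM in KO. The exception was Lama4, a laminin chain of vessels and mesenchyme, at 6.95, 22.6 and 2.10 CPM against 0.637, 0.0873 and 1.10 CPM. Ptprv, a receptor phosphatase gene of bone-forming cells, was at 7.46, 12.1 and 1.93 CPM in WT and 0.920, 0.699 and 1.56 CPM in KO. Of the 12 skeletal and limb mesenchyme regulators tested, 11 were lower and 4 had an unadjusted p below 0.05, with a median of -0.54. Without WT line 2, 8 were lower and 4 higher, 2 at an unadjusted p below 0.05, and the median was -0.31.

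**Figure D5:**
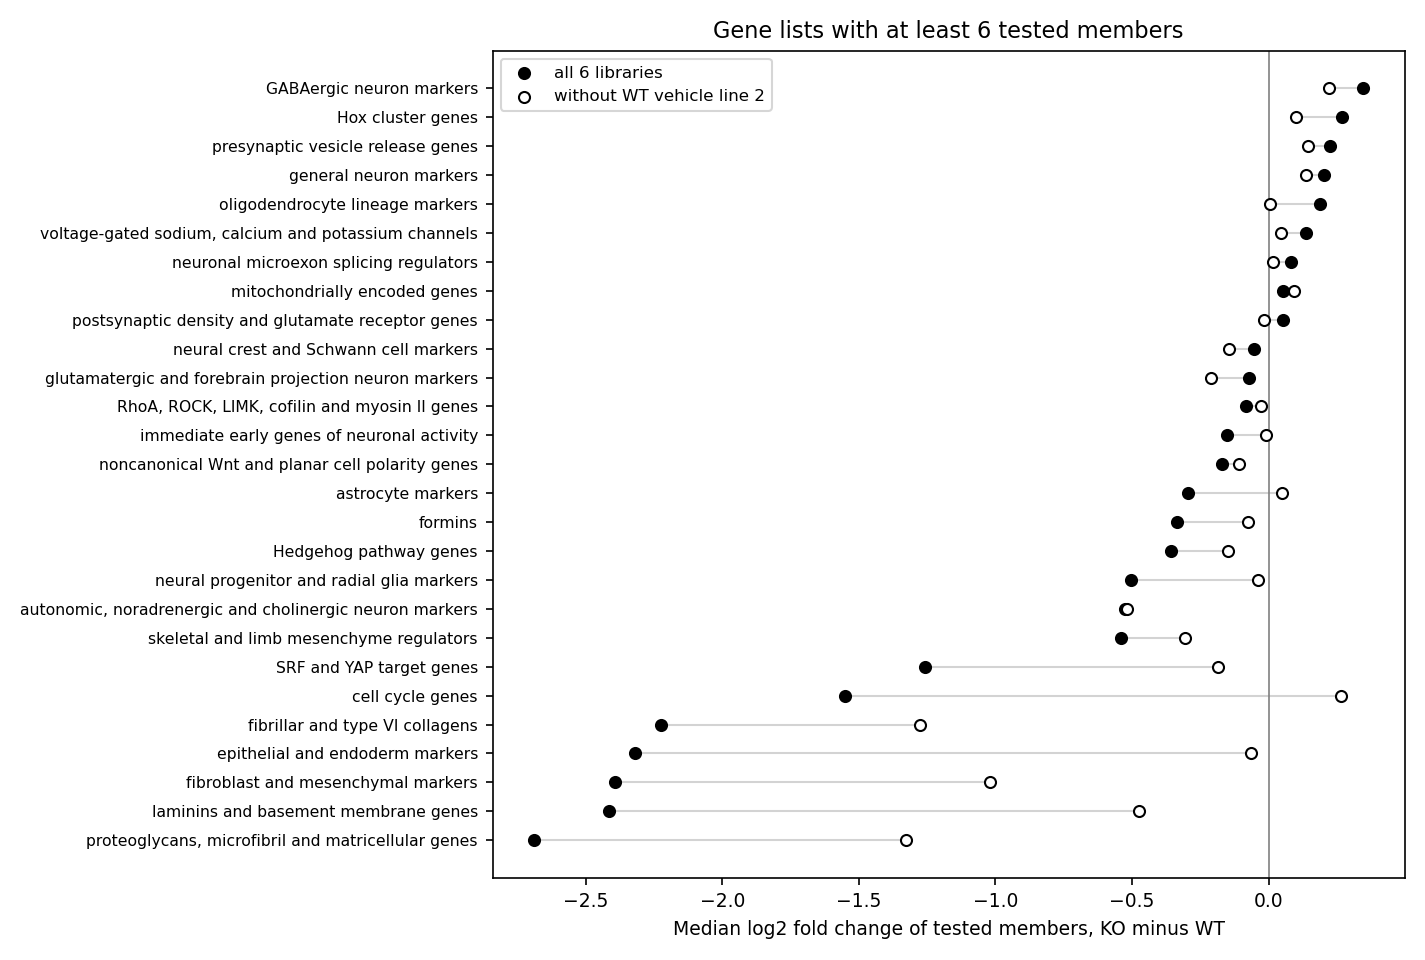
Median log2 fold change (KO minus WT) of the tested members of each list with at least 6 of them, over all 6 libraries (filled) and without WT line 2 (open). Matrix, mesenchymal and epithelial lists lie furthest below 0, most of them move towards 0 without WT line 2, and cell cycle genes go from -1.55 to 0.27.

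No gene listed for the pathway in which Daam1 acts passed the adjusted edgeR test. The medians of its lists were smaller in size without WT line 2. Of 14 formins, 4 were higher and 10 lower, with 0 at an unadjusted p below 0.05 and a median of -0.34 (-0.08 without WT line 2). Daam2, the closest relative of Daam1, was at 2.99, 3.45 and 0.819 CPM in WT and 1.31, 0.961 and 0.587 CPM in KO. Fhod1, a formin that acts downstream of ROCK, was at 2.69, 7.37 and 2.00 against 3.33, 1.40 and 1.56 CPM. Of 19 noncanonical Wnt and planar cell polarity genes, 4 were higher and 15 lower (2 and 17 with scaling by library totals), 1 and 2 of them at an unadjusted p below 0.05. With WT line 2 left out, 5 were higher and 14 lower, 1 and 0 of them at that p. Celsr1, an atypical cadherin of that pathway, was at 1.31, 5.09 and 0.557 CPM against 0.637, 0.611 and 0.508 CPM.

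Of 28 genes of RhoA, ROCK, LIMK, cofilin and myosin II, 10 were higher and 18 lower, and the median was -0.08 (-0.03 without WT line 2). Cofilin (Cfl1), which severs actin filaments, was at 554, 627 and 587 CPM in WT and 533, 578 and 565 CPM in KO. Profilin 2 (Pfn2), which delivers actin to formins, was at 600, 494 and 609 against 636, 657 and 655 CPM. Targets of the actin-regulated factors SRF and YAP were lower in 20 of 23, 5 of them at an unadjusted p below 0.05. Their median was -1.26, and -0.18 without WT line 2. In that fit 7 were higher and 16 lower, 1 and 0 of them at an unadjusted p below 0.05. Filamin A (Flna), an actin crosslinker, was at 209, 305 and 182 CPM in WT and 168, 163 and 93.3 CPM in KO, without overlap. It was the 1 gene of the 23 whose groups did not overlap, against 5.22% of all genes on the lower side. Ccn2, a matricellular YAP target, was at 61.5, 569 and 37.0 against 93.9, 20.7 and 29.6 CPM.

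Hedgehog genes differed in both directions. The ligand gene Shh was at 4.10, 3.21 and 5.24 CPM in WT and 6.33, 12.2 and 12.6 CPM in KO (log2 difference 1.31 ± 0.33). Here too KO lines 2 and 3 were alike and KO line 1 was nearer to WT. Ptch1, receptor and target, was at 41.0, 47 and 44.2 against 46.6, 49.7 and 57.0 CPM. Of 12 members tested, 2 were higher and 10 lower, among them Gli2, with a median of -0.36. Leaving out WT line 2 gave 5 higher and 7 lower, with a median of -0.15.

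Autonomic, noradrenergic and cholinergic markers were lower in 12 of 13, 2 of them at an unadjusted p below 0.05, with a median of -0.53 and summed levels of 25.5 to 40.5 CPM in WT and 14.9 to 26.9 CPM in KO. Slc6a2, the noradrenaline transporter, was at 1.91, 12.3 and 2.16 CPM in WT and 0.814, 0.262 and 0.274 CPM in KO. Of 6 neural crest and Schwann cell markers, 3 were higher and 3 lower, with a median of -0.05. Leaving out WT line 2 gave 1 higher and 5 lower, and without KO line 1 the median was above 0. Foxd3, a neural crest transcription factor, was at 1.95, 2.39 and 2.59 CPM in WT and 1.31, 1.53 and 0.939 CPM in KO. Tfap2b, another crest and interneuron factor, was at 21.5, 17.2 and 28.5 against 16.7, 14.1 and 15.1 CPM. Sox10, which defines that lineage and oligodendrocytes, had 0 counts in all 6 libraries.

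The values of proliferation and progenitor genes depended on WT line 2. Of 23 cell cycle genes, 22 were lower with all 6 libraries (median -1.55), and 20 were higher without WT line 2 (median 0.27). Top2a, a topoisomerase of dividing cells, was at 12.2, 129 and 5.01 CPM in WT and 25.9, 1.40 and 5.01 CPM in KO. The median of 10 neural progenitor and radial glia markers went from -0.50 to -0.04, and that of 8 epithelial and endoderm markers from -2.32 to -0.06. Krt8, an epithelial keratin, was at 19.3, 209 and 8.22 CPM against 33.3, 4.93 and 9.97 CPM. Among 9 astrocyte markers 4 were higher and 5 lower (median -0.30), and without WT line 2 7 were higher and 2 lower (median 0.05). Gfap was at 181, 178 and 40.6 CPM in WT and 88.7, 60.4 and 41.9 CPM in KO, and Aldoc, an abundant astrocyte enzyme, at 365, 391 and 409 against 414, 484 and 532 CPM. The endothelial genes Tie1 and Cldn5 and the microglial gene C1qc had 0 counts in all 6 libraries.

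Regulators of microexon splicing, immediate early genes and mitochondrial genes held 0, 1 and 0 genes at an unadjusted p below 0.05. Of 17 splicing regulators, 12 were higher and 5 lower, with a median of 0.08. When WT line 2 was left out, 9 were higher and 8 lower, 1 of them at an unadjusted p below 0.05, and the median was 0.01. Nova1 was at 345, 290 and 431 CPM in WT and 321, 421 and 439 CPM in KO. Of 23 immediate early genes of neuronal activity, 7 were higher and 16 lower, with a median of -0.15 (-0.01 without WT line 2). Egr1 was at 39.1, 60.4 and 28.9 CPM against 72.3, 31.8 and 48.5 CPM. The 13 mitochondrially encoded genes had a median of 0.05.

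The inhibitor libraries of the same lines, scaled together with the vehicle libraries, gave side-by-side values for the leading genes. KO line 3 stood apart under the inhibitor. Nefm was at 597, 563 and 190 CPM, Slc6a5 at 217, 214 and 42.9 CPM and Col4a1 at 1198, 91.5 and 14856 CPM in KO lines 1 to 3. The values of that library below were measured beside this low level of neuronal genes and high level of a basement membrane gene, and the part of these in them was not tested. Lrmp was at 19.6, 15.9 and 0.595 CPM in WT and at 0, 0.0289 and 0.127 CPM in KO under the inhibitor. En1 was at 8.58, 7.41 and 10.1 CPM against 4.56, 4.48 and 2.19 CPM, and Scn4b at 14.3, 14.1 and 18.2 against 17.6, 15.7 and 4.07 CPM. Meg3 was at 22.6, 16.4 and 450 CPM against 0.656, 1.53 and 0.382 CPM. WT line 3 was thus far from its vehicle level for Lrmp and Meg3, and KO line 3 for Scn4b. Hox genes of paralogues 1 to 6 summed to 586, 622 and 432 CPM in WT and to 619, 1034 and 181 CPM in KO under the inhibitor, so that KO line 2 was again the high one and KO line 3 was low.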

How the data were processed

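Poly(A) RNA of 12 libraries was sequenced as stranded libraries, per the labels' protocols, and the 6 vehicle libraries were compared here. The authors deposited 1 table per library with a raw read count and a cRPKM value (an RPKM, relative to transcript length and sequencing depth, with a correction not described in the labels) for 36902 genes. The genome build was mm10 per the submitters' processing notes. The aligner, the counting rule and the use of strand are not given in the sources used here, so antisense and overlapping genes are uncertain. Genes given as NA in every library (3342) were left out. Of 33560 genes with counts, 33371 identifiers matched GENCODE M21 (GRCm38), from which symbols, coordinates and the Daam1 exon sequence were taken. The 10 genes with the smallest p in each direction were taken among those with a mean of at least 1 CPM, non-overlapping groups and a symbol other than a predicted-gene name; 1 lower gene and 1 list gene are not reported here.

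Counts were tested with edgeR 4.0.16 in R 4.3.3 (filterByExpr by group, TMM, robust glmQLFit and the quasi-likelihood F test) on the 6 libraries without a replicate block, with Benjamini-Hochberg adjustment over 14668 genes and a threshold of 0.05. The SE of a log2 fold change is its size over the root of the F statistic. The procedure was tested on simulated counts in which no library stood apart, unlike in these data. Alternatives were DESeq2 1.42.0, library-total scaling, no filter, each library left out, a replicate block, a fit of all 12 libraries and, added after the data were seen, limma 3.58.1 voom with library weights. Named genes were Daam1, the 10 with the smallest p in each direction, up to 10 called by DESeq2, and per list those with the largest change at 1 CPM or more or the highest level. The comparison, the 32 gene lists and the rule were chosen with earlier results of these data known, and list counts are descriptions. Library totals of 23253566 to 30080749 counts set the counting precision, and the floor of 3 counts covers counting error only.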

Additional observations from a re-analysis of the deposited data

How the results depend on the processing

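With 3 lines a group and a WT line that stands apart, few differences could be separated from the spread: the biological coefficient of variation was 0.294, and 0.165 without WT line 2. The number of genes called was 0 in edgeR under library-total scaling, no filter, the replicate block and the fit of all 12 libraries, and 0 by limma voom. It was 59 by DESeq2, 40 of them among the 59 smallest p of edgeR, and 0 to 2 when 1 library was left out, the 2 being Lrmp and Meg3 without WT line 2. Genes at an unadjusted p below 0.05 numbered 754, against 1138 by DESeq2, 307 in the fit of all 12 libraries, 1716 by limma voom and 295 to 1586 when 1 library was left out (295 without KO line 2, 471 without KO line 3 and 1586 without WT line 3). Genes whose groups did not overlap numbered 1747, against 2565 to 4525 when 1 library was left out, where fewer libraries make such a gap easier. Whether line numbers pair the groups was not settled: deviations from the group means correlated at -0.364, -0.690 and 0.177 for lines 1 to 3. Deviations within a group sum to 0 and WT line 2 stands apart, so these values cannot show whether lines are paired. With the line number as a replicate block, 494 genes were at an unadjusted p below 0.05.

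Of 72 genes named, 65 kept the sign of their difference in every alternative run. With 1 library left out, the log2 difference of Daam1 ran from -0.082 to 0.063, that of Top2a from -3.92 to 0.33, Krt8 from -3.40 to 0.23, Egr1 from -0.10 to 0.58, mt-Atp8 from -0.77 to 0.078 and Dlg4 from -0.058 to 0.0050. That of Cfl1 was 0.0017 by limma voom. Of 32 medians, over lists and the Hox sets, 25 kept their sign. The others ran from -0.55 to 0.049 for astrocyte markers, -2.49 to 0.27 for cell cycle genes, -0.21 to 0.30 for glutamatergic and forebrain markers, -0.039 to 0.16 for mitochondrial genes, -0.15 to 0.0023 for neural crest and Schwann cell markers, -2.78 to 0.16 for pluripotent stem cell markers and -0.016 to 0.16 for postsynaptic genes. The cause was not tested. In the fit of all 12 libraries, Lrmp had the smallest p, with an adjusted p of 0.999.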

Other observations

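A pair of short mitochondrial genes set KO line 1 apart from the other libraries. mt-Atp8, which overlaps mt-Atp6, was at 950, 927 and 1065 CPM in WT and at 263, 1211 and 882 CPM in KO, whereas mt-Atp6 was at its highest in KO line 1. mt-Nd4l, which overlaps mt-Nd4, was at 1341, 1259 and 1388 CPM in WT and at 668, 1466 and 1151 CPM in KO.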
